A study of Mus musculus with 20 samples.

Results

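The hippocampal neuropeptide genes described here are 10 genes chosen by name from the 39056 genes of the count table: Sst, Npy, Vip, Cck, Penk, Pdyn, Tac1, Tac2, Crh and Nts. They were chosen for what they encode and not for their values, though earlier results of these data were known. Neuropeptides are short signalling peptides that neurons cut from longer precursors, pack into dense core vesicles and release to act on G protein-coupled receptors. In the hippocampus, somatostatin (Sst), neuropeptide Y (Npy), vasoactive intestinal peptide (Vip) and cholecystokinin (Cck) are classical markers of GABA interneuron classes, the enkephalins (Penk) and dynorphins (Pdyn) are opioid peptides, the latter known from dentate granule cells and mossy fibres, and Tac1, Tac2, Crh and Nts encode substance P, neurokinin B, corticotropin-releasing hormone and neurotensin.

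RNA came from the left hippocampus of 20 female C57BL/6 mice, 1 library a mouse, in 4 groups of 5: Non-Tg miR34a+/+ (WT Non-Tg), Non-Tg miR34a-/- (KO Non-Tg), Tg-SwDI miR34a+/+ (WT Tg-SwDI) and Tg-SwDI miR34a-/- (KO Tg-SwDI). None of the groups had a drug treatment apart from the ketamine and xylazine that the paper gives as anaesthesia before tissue was taken. Tg-SwDI mice carry a human amyloid precursor protein transgene with the Swedish, Dutch and Iowa mutations under the Thy1 promoter, which drives it in neurons, and the microRNA miR-34a is missing from every cell of the KO mice. The mice had gone through behavioural tests at 12 months of age before tissue was taken. A single mouse is given by its group and the number its label carries. Levels are CPM, read counts scaled to a common library size after TMM normalization.

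The libraries held between 19549622 and 21066868 counts on genes. The microRNA is too short for these mRNA libraries and its loss was not checked here, while reads on Thy1, the gene that lends its promoter to the transgene, reached 684.5 to 769.1 CPM over the 10 Non-Tg mice, 1905 to 2328 CPM in the WT group with the transgene and 2454 to 3318 CPM in the KO group with it. All CA pyramidal cell and dentate granule cell markers listed had counts in every group, with summed levels of 840.7 to 1047 CPM and 369.6 to 505.1 CPM. KO Tg-SwDI mouse 8 stood apart from its group: it was the highest or the lowest of the 5 mice at 59.7% of the genes tested, against 26.7% to 40.6% for the other KO Tg-SwDI mice and 29.9% to 51.3% in the other groups. Its TMM factor was 0.901, against 0.981 to 1.031 for the other mice, and a low factor raises the CPM of a mouse. Some results for Sst, Npy, Cck, Vip and Penk are also given without it. Choroid plexus markers, which belong to the tissue next to the hippocampus, had summed levels (15 genes) of 309.9 to 6928 CPM in the WT Non-Tg group, 272.6 to 732.8 CPM for KO Non-Tg, 405.7 to 5804 CPM for WT Tg-SwDI and 421.6 to 5663 CPM for KO Tg-SwDI mice, and 13 of the 15 were called higher in KO Tg-SwDI than in KO Non-Tg mice. They thus moved with the comparison of the KO groups. Their median log2 fold change was also -2.99 for KO against WT in Non-Tg mice (0 of 15 called). It was 1.76 for the average Tg-SwDI effect (2 called) and -1.55 for the average miR-34a effect (0 called). In Tg-SwDI against Non-Tg mice all 9 microglial markers and all 6 astrocyte markers were called higher on average, as were 5 of 7 oligodendrocyte markers, and 5 of these 7 were called higher in KO mice. In bulk tissue, fewer cells of a type and less RNA per cell cannot be told apart.

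miR-34a pairs with target transcripts mainly through its seed, bases 2 to 8. Its mature form (RefSeq, GRCm38.p6, chr4:150068473-150068494, plus strand) and the only seed match (CACTGCC) in a 3'UTR of the 10 genes, in Penk (mm10, chr4:4133701-4133707, minus strand), are shown because the KO mice lack this microRNA. The capitals mark the seed and its match.

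mmu-miR-34a-5p: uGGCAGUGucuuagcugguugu

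Penk 3'UTR site: ctagataactaCACTGCCtgaaagctgtg

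Over all genes with an annotated 3'UTR, 2976 of 20914 (14.2%) held the same 7 letters, so 1 of 10 is near that share. A match is a description of letters and not evidence that the site is used. For Sst, Cck and Npy, whose levels moved together between mice, the 250 bases before the RefSeq start (GRCm38.p6) are shown with the cyclic AMP response element letters in capitals, either TGACGTCA or its shorter form TGACG on either strand. GENCODE M21 places the 5' end of Sst further upstream, inside this window.

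Sst (chr16:23890845-23891094, minus strand): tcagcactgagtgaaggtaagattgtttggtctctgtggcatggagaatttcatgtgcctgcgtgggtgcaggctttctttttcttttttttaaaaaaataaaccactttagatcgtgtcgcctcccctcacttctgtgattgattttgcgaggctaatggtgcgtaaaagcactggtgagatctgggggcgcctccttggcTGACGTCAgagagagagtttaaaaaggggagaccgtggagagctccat

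Cck (chr9:121495695-121495944, minus strand): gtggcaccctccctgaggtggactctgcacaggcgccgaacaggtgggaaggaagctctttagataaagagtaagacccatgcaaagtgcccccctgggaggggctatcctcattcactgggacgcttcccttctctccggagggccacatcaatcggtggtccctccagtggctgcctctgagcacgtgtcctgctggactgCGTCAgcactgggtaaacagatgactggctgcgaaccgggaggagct

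Npy (chr6:49822460-49822709, plus strand): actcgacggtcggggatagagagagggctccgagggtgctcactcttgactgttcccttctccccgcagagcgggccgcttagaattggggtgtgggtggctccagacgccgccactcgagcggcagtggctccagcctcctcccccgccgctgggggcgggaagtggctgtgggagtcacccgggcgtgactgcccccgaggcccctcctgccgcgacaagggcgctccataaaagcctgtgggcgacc

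The full element lay in the Sst window alone, 48 bases before the start, among the 9 windows found for 8 of the 10 genes, against 1.55% of 32851 windows of all genes. The shorter letters were in 5 of the 9 windows (Sst, Vip, Cck, Tac1 and Nts), against 17.8% of all windows. The Npy window held neither form. No window was at hand for Penk and Crh.

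Compared per length of annotated exons, the 10 genes spanned a wide range of levels. Sst was the highest, with a mean of 304.2 CPM per kilobase over the 20 mice (218.8 to 527.7), followed by Cck with 206.9 (177.9 to 255.4), Npy with 93.98 (65.11 to 150.9) and Penk with 18.11 (12.61 to 33.86). These 4 genes kept this order in 20 of 20 mice. The next 4 lay close together at mean levels of 5.389 (Vip), 4.864 (Pdyn), 4.119 (Nts) and 2.989 (Tac2) CPM per kilobase, and their ranges overlapped with each other and with Tac1 at 2.828: Vip was above Pdyn in 16 of 20 mice, Pdyn above Nts in 14, Nts above Tac2 in 16 and Tac2 above Tac1 in 12. Crh was the lowest at 1.7 CPM per kilobase and lay below Tac1 in 20 of 20 mice. Sst was above 99.7% and Crh above 30.7% of all genes tested on this scale. The lowest count of any member in any mouse was 27 (Crh), and the highest was 6910 (Sst). The exon length is the union of all annotated transcripts, so genes with long rare isoforms are placed too low.

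**Figure D1:**
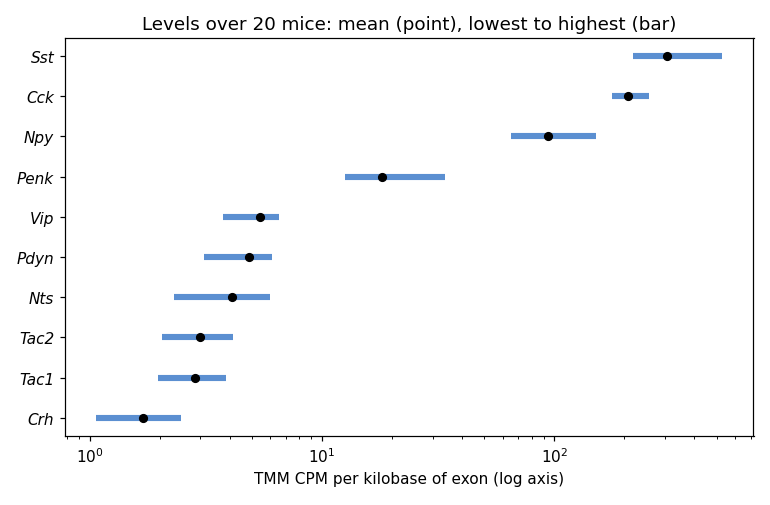
Levels of the 10 neuropeptide genes in TMM CPM per kilobase of annotated exon (horizontal log axis), with the mean of 20 mice as a point and the lowest to highest mouse as a bar. Sst, Cck and Npy lie between 65.11 and 527.7, and Crh is lowest at a mean of 1.7.

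All 10 genes passed the filter on low counts. Changes are log2 fold changes from edgeR's quasi-likelihood test with its Benjamini-Hochberg adjusted p over 16107 genes, and a gene was called at an FDR under 0.05. Between Tg-SwDI and Non-Tg mice, 0 of 10 neuropeptide genes were called in WT mice, where 4.41% of all genes tested were called. DESeq2 and edgeR's exactTest also called 0 there. At an unadjusted p under 0.05 were 2 of the 10, beside 2448 of all 16107 genes. In KO mice 2 of 10 were called, Nts lower and Penk higher, where 20.8% of all genes were called, so the share is near the background. On average over both genotypes 1 of 10 was called (Nts, lower) against 17.2% of all genes. The median log2 fold change of the 10 genes was -0.13 in WT and -0.01 in KO mice, beside 0.00 over all genes tested in both. After removal of the GC and length trend of every library, a step added after seeing the data, all genes called in KO mice split into 1487 higher and 3161 lower, against 2013 and 1338 without this step, and the neuropeptide genes called became Cck, Tac1, Crh and Nts, all lower.

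Between KO and WT mice, 0 of 10 genes were called in Tg-SwDI mice, where 1.99% of all genes were called. At an unadjusted p under 0.05 were 2 of the 10, beside 3052 of all 16107 genes. DESeq2 and the exactTest each called 1 there, Penk. In Non-Tg mice 0 of 10 were called, DESeq2 and the exactTest called 0, and 0% of all genes were called. Of the 10, 0 had an unadjusted p under 0.05, beside 1302 of all genes. The log2 fold changes of the 10 genes in this comparison ran from -0.06 (Cck) to 0.21 (Tac1). For the average miR-34a effect 0 of 10 genes were called against 0.0807% of all genes (0 by DESeq2). Here 2 of the 10 had an unadjusted p under 0.05, beside 1500 of all genes. For the interaction of transgene and miR-34a 0 of 10 were called against 0.608% (0 by DESeq2), and 1 had an unadjusted p under 0.05, beside 2821 of all genes.

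**Figure D2:**
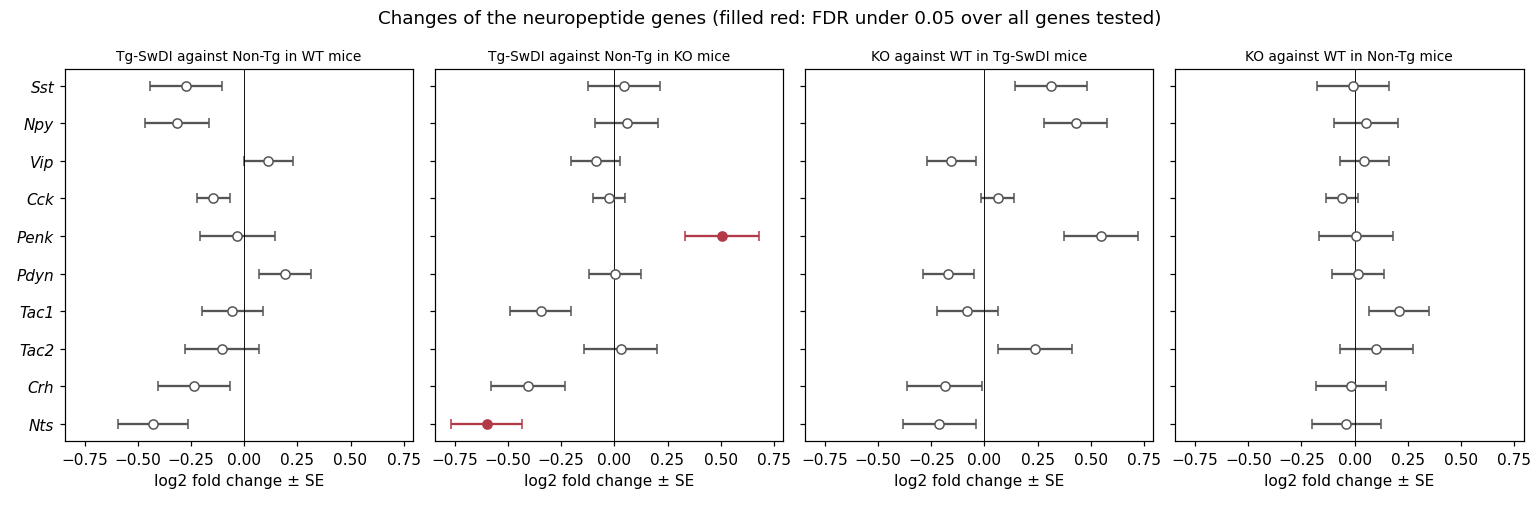
Log2 fold changes with SE (horizontal axis) of the 10 neuropeptide genes in 4 comparisons between groups of 5 mice, filled red where the FDR was under 0.05 over all genes tested. Only Nts (-0.60) and Penk (0.51) are filled, both in Tg-SwDI against Non-Tg KO mice.

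Nts was the neuropeptide gene called lower in Tg-SwDI mice. Its product neurotensin acts on the receptors Ntsr1 and Ntsr2 and is sorted by sortilin (Sort1). Nts was at 4.54, 6.50, 7.47, 7.30 and 4.82 CPM in WT Non-Tg mice and 4.54, 6.64, 5.26, 7.44 and 5.90 in KO Non-Tg mice. The WT Tg-SwDI mice had 4.18, 4.97, 5.20, 3.67 and 4.74 CPM, and the KO Tg-SwDI mice 2.89, 3.55, 3.77, 5.43 and 4.02. The Tg-SwDI mice tended to the low end in both genotypes, yet each pair of groups overlapped. Nts fell by 0.60 on the log2 scale (SE 0.17) in KO mice (edgeR adjusted p = 0.0128), and fell by 0.51 (SE 0.12) on average over both genotypes (adjusted p = 0.00279). In WT mice the log2 difference was -0.43 (SE 0.16) with an adjusted p of 0.182. The interaction was not called for Nts (adjusted p = 0.740), so the WT and KO differences were not shown to differ. The average call held in 28 of 28 alternatives without the replicate block, with adjusted p from 0.000403 to 0.0322. The call in KO mice was lost when the choroid plexus score (log2 -0.57, adjusted p = 0.0988) or the striatum score (log2 -0.51, adjusted p = 0.189) was a covariate, 2 alternatives added after seeing the data, and held in the other 28 of 30, with adjusted p from 0.00305 to 0.189 over all 30.

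Penk, which encodes the precursor of the enkephalins, was the only member called higher. It was at 24.0, 27.1, 25.7, 25.3 and 32.0 CPM in WT Non-Tg mice, at 30.9, 28.9, 22.01, 26.2 and 26.8 CPM in their KO Non-Tg counterparts, and at 20.6, 30.2, 28.7, 23.6 and 28.2 CPM in the WT Tg-SwDI group. In KO Tg-SwDI mice it was at 33.5, 23.4, 35.0, 55.3 and 44.5 CPM, so 4 of the 5 mice lay above all other mice and mouse 2 lay among them. The log2 fold change was 0.51 (SE 0.17, adjusted p = 0.0466) for Tg-SwDI against Non-Tg in KO mice, -0.03 (SE 0.18) in WT mice, and 0.55 (SE 0.17, adjusted p = 0.106) for KO against WT in Tg-SwDI mice. The interaction itself had a log2 of 0.54 (SE 0.25) and an adjusted p of 0.269. The call in KO mice is at its threshold: it held in 8 of 30 alternatives without the replicate block, with adjusted p from 0.00275 to 0.674, and was lost in 16 of the 20 runs that left out a mouse, among them those without KO Tg-SwDI mouse 5 (adjusted p = 0.119) or mouse 8 (0.113). Without KO Tg-SwDI mouse 2, the lowest, Penk was called in KO mice (log2 0.66), on average (0.32, adjusted p = 0.0339) and for KO against WT in Tg-SwDI mice (0.69, adjusted p = 0.0168). Penk is also a main transcript of the striatum. For Tg-SwDI against Non-Tg in KO mice, 2 of 10 striatal markers were called higher, Adora2a (log2 0.82, SE 0.22) and Ppp1r1b (0.53, SE 0.13). Pde10a was called lower (-0.33, SE 0.06), so 3 of 10 were called, near the 20.8% of all genes called there. The summed level of the striatal markers ran from 183.9 to 204 CPM in KO Non-Tg and from 175.1 to 212.5 CPM in KO Tg-SwDI mice, with none of the 10 at 0. With the striatum score as a covariate the log2 fold change of Penk was 0.19 (adjusted p = 0.674), and with the choroid plexus score 0.35 (adjusted p = 0.404). Whether the Penk reads came from striatal tissue was not tested.

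**Figure D3:**
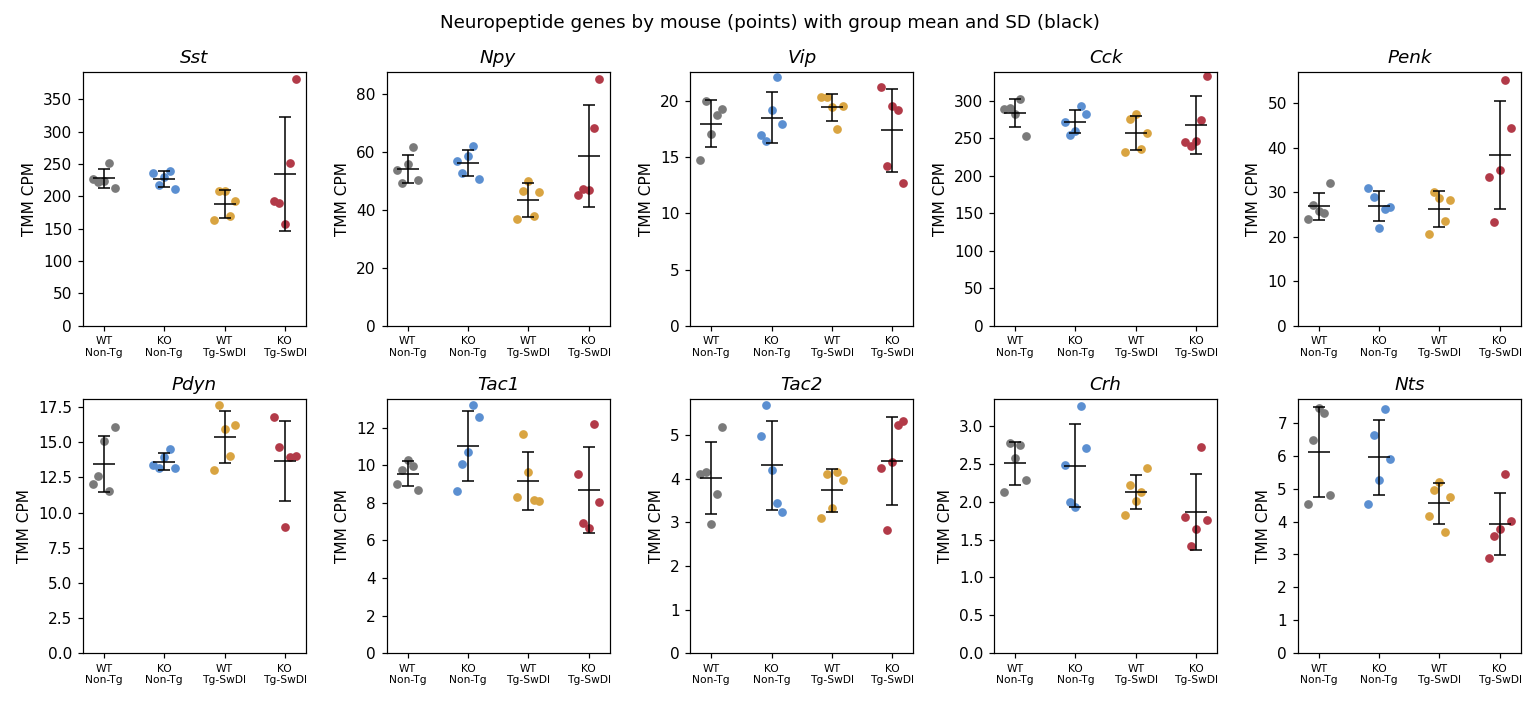
TMM CPM of each neuropeptide gene (vertical axes from 0) in every mouse, as points by group, with the group mean and SD of 5 mice in black. Nts lies lower in the Tg-SwDI groups with overlap, 4 of 5 KO Tg-SwDI mice are highest for Penk, and 1 KO Tg-SwDI mouse is far above its group for Sst, at 380.5.

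Sst, the marker of dendrite-targeting interneurons, was at 227.5, 222.3, 224.3, 251.6 and 213.4 CPM in WT Non-Tg and 235, 217, 230, 240 and 212 CPM in KO Non-Tg mice. In WT Tg-SwDI mice it was at 163, 208, 208, 169 and 194 CPM, below every Non-Tg mouse. In KO Tg-SwDI mice it was at 193, 189, 158, 251.5 and 380.5 CPM, so that 3 mice were below every Non-Tg mouse and mouse 8 was the highest of all 20. Sst was the only neuropeptide gene whose groups did not overlap in WT mice, where 6.69% of all genes tested had groups of 5 without overlap. In the other comparisons 0 of 10 neuropeptide genes had groups without overlap, against 12.8% of all genes for Tg-SwDI against Non-Tg in KO mice, 3.16% for KO against WT in Tg-SwDI mice and 2.23% in Non-Tg mice.

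The separation of Sst in WT mice was not called when all 20 mice shared 1 estimate of spread: the log2 fold change was -0.27 (SE 0.17, adjusted p = 0.498). The spread that this fit used included KO Tg-SwDI mice, where the coefficient of variation of Sst was 37.7%, against 6.27% for WT Non-Tg, 5.20% for KO Non-Tg and 11.3% for WT Tg-SwDI mice. Fitted on the 10 WT mice alone, the log2 fold change was -0.28 with an adjusted p of 0.0397 (0.0397 to 0.692 over 30 alternatives). The exact two-sided permutation test of group means gave p = 0.00794, the smallest it can give for 5 against 5 mice, and 0.159 after adjustment over 60 pairs of groups. In KO mice the log2 fold change was 0.05 (SE 0.17) with mouse 8 and -0.19 without it (adjusted p = 0.220), and for KO against WT in Tg-SwDI mice it was 0.31 (SE 0.17, adjusted p = 0.336) with mouse 8 and 0.071 without it (adjusted p = 0.792). Without that mouse the average Tg-SwDI effect on Sst was called (log2 -0.23, adjusted p = 0.0285), against -0.11 (adjusted p = 0.577) with it and a range of 0.0285 to 0.778 over 28 alternatives.

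Npy, which is made by several interneuron classes including many that make somatostatin, followed Sst closely. Its levels were 53.7, 49.5, 55.9, 61.7 and 50.5 CPM in WT Non-Tg mice, 56.9, 53.0, 58.8, 62.1 and 50.7 CPM in the KO Non-Tg group, and 36.9, 46.5, 49.9, 38.1 and 46.4 CPM in WT Tg-SwDI mice. In KO Tg-SwDI mice they were 45.4, 47.4, 47.0, 68.3 and 85.4 CPM, with mouse 8 again the highest and mouse 5 second. In WT mice only the highest Tg-SwDI mouse (49.9) reached the range of the Non-Tg mice. The log2 fold change was -0.32 (SE 0.15, adjusted p = 0.326) for Tg-SwDI against Non-Tg in WT mice, 0.06 (SE 0.15) in KO mice, and 0.43 (SE 0.15, adjusted p = 0.133) for KO against WT in Tg-SwDI mice, none of them called. Without mouse 8 the value was -0.11 in KO mice and 0.26 (adjusted p = 0.301) for KO against WT in Tg-SwDI mice.

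Cck is made by basket interneurons and, at lower levels per cell, by pyramidal cells. It had the smallest spread of the 10 genes, with a coefficient of variation over all 20 mice of 9.46%. Its group means were 283.6 ± 18.2 CPM (SD, n = 5) in WT Non-Tg, 272.2 ± 15.8 CPM in the KO Non-Tg group, 256.4 ± 22.7 CPM in WT Tg-SwDI and 267.6 ± 39.0 CPM in KO Tg-SwDI mice, where mouse 8 was at 333.2 and the other 4 mice between 240 and 274 CPM. The log2 fold change for Tg-SwDI against Non-Tg was -0.15 (SE 0.08) in WT and -0.02 (SE 0.08) in KO mice, and 0.06 (SE 0.08) for KO against WT in Tg-SwDI mice, which was -0.029 without mouse 8. The average Tg-SwDI effect was -0.09 (SE 0.05, adjusted p = 0.308) and became called without mouse 8 (-0.13, adjusted p = 0.0312), with adjusted p from 0.00845 to 0.565 over 28 alternatives.

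Vip, the marker of interneurons that mostly contact other interneurons, had group means of 17.97 ± 2.10, 18.5 ± 2.27, 19.4 ± 1.17 and 17.4 ± 3.70 CPM (SD, n = 5) in WT Non-Tg, KO Non-Tg, WT Tg-SwDI and KO Tg-SwDI mice, and KO Tg-SwDI mouse 8, highest for Sst and Npy, was the lowest of all 20 for Vip at 12.7 CPM. The log2 fold change for Tg-SwDI against Non-Tg was 0.11 (SE 0.12) in WT and -0.09 (SE 0.12) in KO mice, and -0.16 (SE 0.12) for KO against WT in Tg-SwDI mice. Without mouse 8 the value in KO mice was 0.0066 (adjusted p = 0.976). With 1 mouse left out, KO against WT in Tg-SwDI mice ran from -0.24 to -0.063.

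Pdyn, the precursor of the dynorphins, had group means of 13.5 ± 1.99, 13.6 ± 0.601, 15.4 ± 1.84 and 13.7 ± 2.87 CPM (SD, n = 5) in the same order of groups. Its lowest mouse of all was KO Tg-SwDI mouse 3 at 8.99 CPM. The log2 fold change was 0.19 (SE 0.12, adjusted p = 0.503) for Tg-SwDI against Non-Tg in WT mice, 0.00 (SE 0.12) in KO mice and -0.17 (SE 0.12) for KO against WT in Tg-SwDI mice. The opioid peptide genes thus differed in the size of their values, but the difference between Penk and Pdyn was not tested.

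Of the tachykinin genes, Tac1 had group means of 9.54 ± 0.663, 11.04 ± 1.85, 9.18 ± 1.54 and 8.68 ± 2.27 CPM (SD, n = 5) in WT Non-Tg, KO Non-Tg, WT Tg-SwDI and KO Tg-SwDI mice. Its log2 fold change for Tg-SwDI against Non-Tg was -0.35 (SE 0.14, adjusted p = 0.0908) in KO mice, -0.06 (SE 0.14) in WT mice and -0.20 (SE 0.10, adjusted p = 0.187) on average. In KO Tg-SwDI mice Tac1 was at 9.56, 6.94, 6.67, 12.2 and 8.04 CPM, and without mouse 5, the highest, the difference in KO mice was called (-0.49, adjusted p = 0.0120), as was the average effect (-0.27, adjusted p = 0.0441). The difference in KO mice was also called without KO Non-Tg mouse 1 (adjusted p = 0.0482), and adjusted p ran from 0.0120 to 0.227 over 30 alternatives and from 0.0345 to 0.326 for the average. Tac2 was lower, between 2.82 and 5.69 CPM over the 20 mice, with a coefficient of variation of 20.4%, near the 18.7% of Tac1. Its log2 fold changes were -0.10 (SE 0.18) in WT mice, 0.03 (SE 0.17) in KO mice and 0.24 (SE 0.17) for KO against WT in Tg-SwDI mice.

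Crh, which encodes the stress peptide of a small set of hippocampal interneurons, was at 2.13, 2.78, 2.58, 2.75 and 2.29 CPM in WT Non-Tg and 2.49, 1.99, 1.93, 3.26 and 2.71 CPM in KO Non-Tg mice. It was at 1.83, 2.22, 2.01, 2.13 and 2.44 CPM in WT Tg-SwDI and 1.80, 1.41, 1.64, 2.72 and 1.76 CPM in KO Tg-SwDI mice. In KO Tg-SwDI mice 4 of 5 values lay below every Non-Tg mouse, and mouse 5 lay among them. The log2 fold change for Tg-SwDI against Non-Tg was -0.41 (SE 0.17, adjusted p = 0.0958) in KO mice, -0.24 (SE 0.17) in WT mice and -0.32 (SE 0.12, adjusted p = 0.0682) on average. Without KO Tg-SwDI mouse 5 the difference in KO mice (-0.57, adjusted p = 0.0189) and the average effect (-0.40, adjusted p = 0.0149) were called, and the average was also called without KO Non-Tg mouse 2 (adjusted p = 0.0478) or mouse 4 (0.0476). Adjusted p ran from 0.0133 to 0.390 over 30 alternatives in KO mice and from 0.00809 to 0.288 over 28 for the average. With 27 to 68 counts a mouse, Crh is the member with the least depth behind it.

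Each gene's 4 group means were also put in order. Of 60 pairs of groups over the 10 genes, 8 had an unadjusted p under 0.05 by the exact two-sided permutation test and 0 had an adjusted p under 0.05. The smallest p this test can give is 0.00794, which could hardly pass an adjustment over 60 pairs, so the count of 0 does not show that groups were alike. This p was reached for Sst in WT Non-Tg against WT Tg-SwDI and KO Non-Tg against WT Tg-SwDI mice, and for Npy in KO Non-Tg against WT Tg-SwDI mice. For Nts both Non-Tg groups (means 6.12 and 5.96 CPM) lay above WT Tg-SwDI (4.55) and KO Tg-SwDI (3.93), and the step between KO Non-Tg and WT Tg-SwDI had an exact p of 0.0476 (adjusted 0.340). For Penk the 3 lower groups lay between 26.2 and 27.0 CPM, and the step up to KO Tg-SwDI at 38.3 CPM had an exact p of 0.0714 (adjusted 0.340).

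The genes also varied between mice of 1 group, and some did so together. After the group means were removed from log2 CPM, Sst and Npy had a Pearson r of 0.94 and a Spearman rho of 0.97 over the 20 mice (permutation within groups, p = 2e-05 and 1e-05, the latter the smallest that 100000 permutations can give, adjusted p = 0.0009 and 0.00045 over 45 pairs). Sst and Cck had r = 0.86 and rho = 0.82 (adjusted permutation p = 0.0045 and 0.00788), and Npy and Cck r = 0.86 and rho = 0.78 (adjusted permutation p = 0.0069 and 0.0156). These relations did not rest on KO Tg-SwDI mouse 8: without it r was 0.90, 0.76 and 0.77. Without the 2 mice farthest from the median of the first gene r was 0.96, 0.83 and 0.76. Single libraries deviated from their group with the GC content of genes, at a Spearman rho of -0.176 to 0.286. The relations were not computed again after removal of GC and length trends, so the part of such trends in them was not tested. Penk and Tac2 were the fourth pair past an adjusted p of 0.05 by r (0.68, adjusted permutation p = 0.0314), but not by rho (0.62, adjusted permutation p = 0.0703), and r was 0.53 without the 2 farthest mice. Npy and Nts passed by rho (0.63, adjusted permutation p = 0.0302) and not by r (0.52, adjusted permutation p = 0.145).

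Among the less abundant genes, Tac1 and Crh had r = 0.67 (adjusted permutation p = 0.0873), Tac1 and Nts 0.58 (adjusted permutation p = 0.0998) and Crh and Nts 0.58 (adjusted permutation p = 0.129), none past the threshold. Vip had negative values with Sst (-0.40), Npy (-0.29) and Cck (-0.25), which were not past it either.

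**Figure D4:**
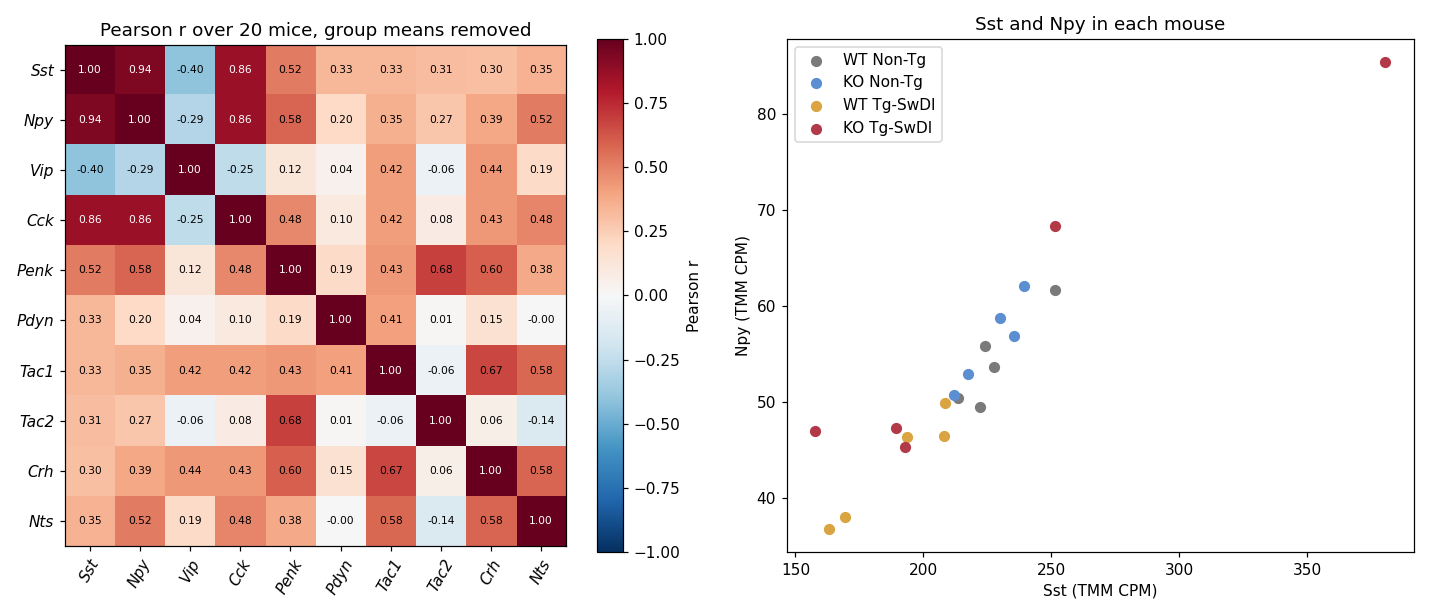
Left, Pearson r between the 10 neuropeptide genes over 20 mice after group means were removed, from -1 (blue) to 1 (red); right, TMM CPM of Npy (vertical) against Sst (horizontal) in each mouse, coloured by group. Sst, Npy and Cck form a block with r from 0.86 to 0.94, and the KO Tg-SwDI mouse at 380.5 CPM of Sst is also the highest for Npy at 85.4 CPM.

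The markers that moved with these genes were read from 18 lists, as the mean centred log2 CPM of each. Of 180 gene and list pairs, 22 had an unadjusted permutation p under 0.05 and 0 passed after adjustment. The 3 highest values were with 8 pan-neuronal markers, at r = 0.83 for Sst, 0.81 for Cck and 0.77 for Npy (adjusted permutation p = 0.165 each), and r was 0.67, 0.67 and 0.61 without KO Tg-SwDI mouse 8. The list of peptide processing genes had r from 0.02 to 0.65 with the 10 genes, highest for Crh. The subiculum list had r = -0.75 with Pdyn (adjusted permutation p = 0.205), which was -0.42 without the 2 farthest mice. The choroid plexus list had r between -0.10 and 0.33 with all 10 genes within groups. The striatum list had r = 0.52 with Penk (adjusted permutation p = 0.498), which was 0.064 without the 2 farthest mice. With Tac2 its r was 0.56 (0.42 without the 2 farthest mice), and with Nts -0.17 (-0.30 without them). The oligodendrocyte list had r = -0.68 with Penk (adjusted permutation p = 0.205), which was -0.39 without the 2 farthest mice. Of these lists, the choroid plexus and striatum scores alone were fitted as covariates, and the part of the others in the changes above was not tested.

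The genes whose levels were most like each member were taken as the highest Pearson r over the 20 mice, group means removed, among all genes tested. They are a description, since they are picked as maxima. For Sst they were Ptprn (r = 0.95), which encodes a dense core vesicle membrane protein, Nosip (0.94) and the kinesin light chain gene Klc2 (0.92). For Npy they were Caly (0.91), Prelid1 (0.91) and Maneal (0.90), and for Cck Tmem59l (0.91), H2afx (0.89) and Hsbp1 (0.88). Crh was most like Ndel1 (0.78) and Nptx2 (0.77), a synaptic pentraxin regulated by activity. Nts was most like Rsl1d1 (0.79), Penk like the chemokine receptor gene Ccr2 (0.80) and the matrix gene Dcn (0.80), Vip like Dpy19l1 (0.86), Pdyn like Fsip1 (0.80), Tac1 like Gpr19 (0.86) and Tac2 like Ak1 (0.80). Without the 2 mice farthest from the median of the member, r was lower for every gene named here except Rsl1d1 (0.83). It was 0.79 for Ptprn and lowest for Fsip1, at 0.62.

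The other genes of the neuropeptide system were taken from 4 further lists. Of 16 other neuropeptide genes, 10 passed the filter, and on average over both genotypes 2 were called lower and 0 higher in Tg-SwDI mice, near the 17.2% of all genes called for this effect. Adcyap1, the precursor of PACAP, fell by 0.54 on the log2 scale (SE 0.08, adjusted p = 1.25e-05). Its levels were 7.42 to 9.70 CPM in WT Non-Tg mice and 8.03 to 11.7 CPM in KO Non-Tg mice, and 5.77 to 6.87 CPM in WT Tg-SwDI mice and 4.75 to 6.91 CPM in the KO Tg-SwDI group, so no Tg-SwDI mouse reached the Non-Tg range. It was called in WT mice (-0.45, SE 0.11, adjusted p = 0.0156) and in KO mice (-0.64, SE 0.11, adjusted p = 0.0002). Cort, which encodes cortistatin, a peptide related to somatostatin, fell by 0.71 (SE 0.17, adjusted p = 0.00481) on average, with group means of 4.74 and 6.30 CPM in the WT and KO Non-Tg mice and 3.23 and 3.46 CPM in the WT and KO Tg-SwDI mice. Cort was called in KO mice and not in WT mice.

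Of 14 genes for peptide processing and granins, 14 were tested, and on average 6 were called lower and 1 higher in Tg-SwDI mice, beside 17.2% of all genes called (938 lower and 1828 higher of 16107). Pcsk1, the prohormone convertase that makes the first cuts in many precursors, fell by 0.70 (SE 0.10, adjusted p = 4.87e-06) in KO mice. It was the list's lower call between KO and WT in Tg-SwDI mice (-0.49, SE 0.10, adjusted p = 0.0111), with levels of 14.8 to 18.3 CPM in WT Tg-SwDI and 9.97 to 14.8 CPM in KO Tg-SwDI mice, which met at their ends. Cadps2, a factor for dense core vesicle release, fell by 0.35 (SE 0.04, adjusted p = 7.77e-07) on average, and so did Vgf (-0.33, SE 0.07), Scg2 (-0.21, SE 0.07), Pam (-0.17, SE 0.04), the enzyme that amidates peptides, and Cadps (-0.14, SE 0.04). Scg3 rose by 0.11 (SE 0.03, adjusted p = 0.0183) on average and by 0.19 (SE 0.05, adjusted p = 0.0307) for KO against WT in Tg-SwDI mice. A transcript that overlaps Pam on the same strand had up to 132 counts in a mouse, and reads of the 2 may be mixed. The list's median was -0.10, beside -0.01 over all genes. In WT mice 2 were called lower (Cadps2 and Vgf), beside 4.41% of all genes. In KO mice 4 were called lower and 1 higher, beside 20.8% of all genes.

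Of 24 receptor and binding protein genes, 23 were tested, and on average 7 were called lower and 1 higher, beside the same 17.2% of all genes. For Crh, both the receptor gene Crhr1 (-0.30, SE 0.07, adjusted p = 0.00156) and the binding protein gene Crhbp (-0.34, SE 0.07, adjusted p = 0.00178) fell, while Crh itself did not pass. For Nts, the astrocyte-enriched receptor gene Ntsr2 rose by 0.23 (SE 0.04, adjusted p = 0.000535), beside the called rise of all 6 astrocyte markers, and Ntsr1 had a log2 of -0.07 (SE 0.09). For Npy, Npy1r (-0.19, SE 0.06) and Npy5r (-0.23, SE 0.07) fell and Npy2r had a log2 of 0.04 (SE 0.08). Sstr3 (-0.18, SE 0.05), Vipr1 (-0.21, SE 0.05) and the delta opioid receptor gene Oprd1 (-0.27, SE 0.07) fell as well, whereas Oprm1 (-0.24, SE 0.17), Cckbr (-0.24, SE 0.12) and Tacr3 (-0.06, SE 0.09) did not pass. These are averages over both genotypes. In WT mice alone 1 of 23 was called (Crhr1, lower), beside 4.41% of all genes. In KO mice 8 were called lower and 1 higher, beside 20.8% of all genes.

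Of 10 genes for peptidases that degrade neuropeptides, 10 were tested and 0 were called in any of the 7 contrasts by edgeR. Of all genes, 0% to 20.8% were called, depending on the contrast. At an unadjusted p under 0.05 were 3 for the average miR-34a effect (1500 of all 16107 genes). There were 2 for KO against WT in Tg-SwDI mice (3052 of all genes) and 1 in Non-Tg mice (1302 of all genes). The other contrasts had 0, among them the average Tg-SwDI effect (4851 of all genes). DESeq2 also called 0 in the 7 contrasts, and the exactTest 0 in the 4 that compare a pair of groups. Of 21 GABA interneuron markers, 0 were called higher and 3 lower on average, near the 17.2% of all genes called: Nxph1 (-0.25, SE 0.05), Kit (-0.16, SE 0.04) and Gad1 (-0.10, SE 0.03). The list's median was -0.06. In WT mice 1 of the 21 was called, lower, beside 4.41% of all genes. In KO mice 5 were called, all lower, beside 20.8% of all genes.

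**Figure D5:**
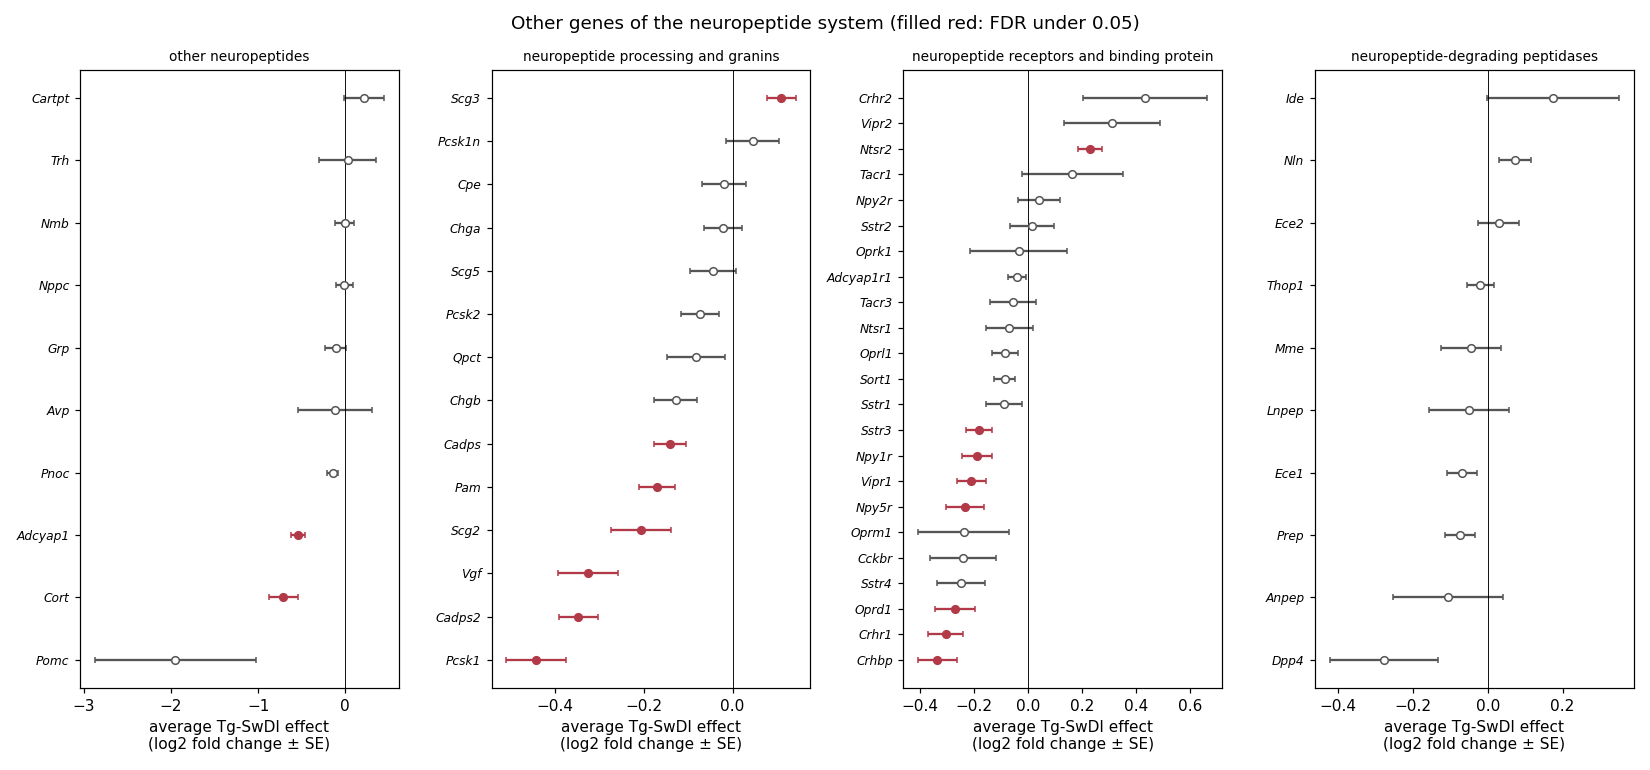
Average Tg-SwDI effect (log2 fold change with SE, horizontal axes of different range) of the tested genes in 4 lists of the neuropeptide system, filled red where the FDR was under 0.05. Adcyap1 and Cort, 6 processing genes and 7 receptor or binding protein genes are called lower, Scg3 and Ntsr2 higher, and none of the 10 peptidase genes is called.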

How the data were processed

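Hippocampal RNA of 20 female mice was sequenced as stranded mRNA libraries. The authors used STAR for alignment to mm10 and featureCounts on ENSEMBL genes, and deposited the raw counts without normalization. The strand setting and the handling of reads matching several genes are not given in the sources used here. Samples were grouped by their labels, which do not say how mice were split into batches. Symbols came from GENCODE M21, by identifier without its version (99.5% matched).

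Totals were 19549622 to 21066868 counts per mouse, which limits precision for genes near 27 counts, the lowest for a member. TMM factors, filterByExpr (minimum count 10, minimum total 15) and 1 robust quasi-likelihood fit of 4 group means with 16 residual degrees of freedom were used (edgeR 4.0.16, R 4.3.3), with 7 contrasts. CPM used the TMM-scaled library sizes. Correlations used log2 CPM (prior count 2), and list scores the mean over a list. On simulated counts the fit was tested for recovery of known changes. Alternatives were DESeq2 1.42.0, exactTest, RLE factors, library size alone, no filter, mean CPM of at least 1, the compared mice alone, the replicate block, a prior count of 0.5 and each mouse left out, and, chosen after seeing the data, choroid plexus and striatum scores as covariates and removal of GC and length trends. The genes named are the 10 members, up to 5 called genes per list, receptors of members and the genes most like each member. Scg2, the 3 striatal genes named, Pomc and the overlap with Pam were picked with their values in view. The members and lists were chosen with earlier results of these data known. The paper describes the Tg-SwDI mice of both miR-34a genotypes as littermates, but the labels do not give litters, so no litter pairing was fitted. Nothing says that mice of 1 group came from separate litters, so p-values measure the spread between these mice. Promoter and microRNA sequences came from RefSeq (GRCm38.p6).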

Additional observations from a re-analysis of the deposited data

How the results depend on the processing

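Of the 10 neuropeptide genes, 1 was called for KO against WT in Tg-SwDI mice by DESeq2 and by the exactTest (Penk), and 0 to 1 with a mouse left out (1 without KO Tg-SwDI mouse 2). In WT mice 1 was called for Tg-SwDI against Non-Tg with the 10 compared mice alone (Sst). In KO mice 1 was called with library size alone, no filter and the 10 compared mice alone (Nts), 0 with the choroid plexus or the striatum score, where calls over all 16107 genes fell from 3351 to 1218 and 1217, 4 with GC and length trends removed, where they rose to 4648, and 1 to 3 with a mouse left out, most without KO Tg-SwDI mouse 5. On average over genotypes 4 were called with trends removed, where calls over all genes rose from 2766 to 5033, and 1 to 3 with a mouse left out, most without KO Tg-SwDI mouse 5 or 8.

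With the replicate number as a block, 1 gene was called in KO mice (Nts) and 2 on average (Crh and Nts), and Penk in KO mice was at 0.42 (adjusted p = 0.132). Same-numbered mice did not deviate alike over all genes tested: of 16 same-numbered pairs, 2 had deviations with r over 0.1, and the median r was -0.04. The labels do not say what the numbers stand for, and this measure cannot settle whether they pair mice.

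Directions that turned were of values that were small in the fit given above and were not called. Some were larger after the turn, down to -0.31 for Tac2, and the cause was not tested. For Tg-SwDI against Non-Tg in KO mice, library size alone gave -0.0075 for Sst, -0.031 for Pdyn and -0.0098 for Tac2. Trend removal gave -0.17 for Sst, -0.15 for Npy, -0.15 for Pdyn and -0.17 for Tac2, the choroid plexus score -0.033 for Pdyn and -0.13 for Tac2, and the striatum score -0.079 for Pdyn and -0.31 for Tac2. Trend removal also gave -0.0017 for Vip in WT mice and, for KO against WT, Cck values of -0.046 with the transgene and 0.022 without it. With a mouse left out, Tg-SwDI against Non-Tg in KO mice ran from -0.19 to 0.16 for Sst, -0.11 to 0.14 for Npy, -0.17 to 0.0066 for Vip, -0.11 to 0.028 for Cck, -0.080 to 0.12 for Pdyn and -0.056 to 0.17 for Tac2. In WT mice it ran from -0.088 to 0.044 for Penk and -0.20 to 0.0060 for Tac2. KO against WT in Tg-SwDI mice ran from -0.029 to 0.11 for Cck and -0.23 to 0.024 for Tac1.

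The 4 gene pairs and 0 list pairs past the threshold were 4 and 0 with a prior count of 0.5. The 0 group pairs were 0 with library size alone, a count that its test could hardly move. For the other genes of the neuropeptide system that were called, 0 values turned. Of their calls, 852 held and 108 were lost with a mouse left out, 272 held and 24 were lost with other tools, scaling or filters or the compared mice alone, 37 held and 11 were lost with the replicate block, and 85 held and 59 were lost under the covariate and trend alternatives added after seeing the data. Depth limits Crh, Tac2 and Nts, with 27 to 159 counts a mouse.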

Other observations

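Pomc, the precursor of melanocortins and beta-endorphin and a gene picked after its values were seen, lay between 0.338 and 2.69 CPM in 19 of 20 mice and at 41.0 CPM (864 counts) in 1 KO Non-Tg mouse. Its average Tg-SwDI log2 fold change of -1.95 (SE 0.93, edgeR adjusted p = 0.169) was not called.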
